A study of Mus musculus with 12 samples.

Results

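The genes that encode the proteins of the cytosolic ribosome were followed through 12 RNA-seq libraries of cultured mouse hematopoietic stem cells. Members were the protein-coding entries of the deposited gene table whose symbol was Rpl or Rps followed by a number and at most 1 letter, together with Rplp0, Rplp1, Rplp2 and Rpsa, each gene ID taken once. The rule gave 80 of the 40481 genes in the table, 31 of the small (40S) subunit and 49 of the large (60S) subunit. It used symbols only and no measured value. Rack1, Fau and Rps3a1 also encode ribosomal proteins but fall outside the name rule, and they are described separately.

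Stem cells were sorted from wild-type (WT) mice or from mice that carried ETV6-RUNX1 in inducible form (called iE/R by the submitters), a transcription factor fusion known from childhood B-cell leukemia. The sources were E14.5 fetal liver and the bone marrow of mice aged 8 weeks. Cells of all 4 groups, WT included, were cultured for 3 days under ex vivo expansion conditions with 1 µg/mL doxycycline, the inducer. Each group (WT fetal liver, ETV6-RUNX1 fetal liver, WT bone marrow, ETV6-RUNX1 bone marrow) had 3 libraries. The labels do not give the promoter that drives the fusion, the sex of the mice, the number of mice per library or whether libraries came from separate cultures. The p-values therefore measure only the spread between these libraries, which may be technical.

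Ribosomal proteins are made in near-equal amounts and join ribosomal RNA in the nucleolus, and surplus protein is degraded. Their mRNAs are among the most abundant in growing cells, and most begin with a run of pyrimidines at the very start of the transcript, the 5′ terminal oligopyrimidine (TOP) motif, through which mTOR and LARP1 control their translation and stability. Hematopoietic stem cells are known for a low and tightly held rate of protein synthesis, and loss of 1 copy of any of several of these genes causes Diamond-Blackfan anaemia, a failure of red cell production.

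Library totals lay between 32.3 and 64.5 M reads. Values are CPM, reads scaled to a fixed total per library, so each is a share of the reads of its library, and a member can be lower either because its own RNA was lower or because other RNA was higher. In bulk RNA, fewer cells of a type and less RNA per cell cannot be told apart. All 10 stem cell markers on a list (Kit, Ly6a, Procr and others) exceeded 1 CPM in every library. The 6 lymphoid markers summed to 38.5 to 80.7 CPM, nearly all of it Cd79b (38.2 to 79.8 CPM). Cd3e and Ncr1 were at or under a floor of 3 reads in every group. Cd3d was highest in ETV6-RUNX1 fetal liver replicate 3 (0.390 CPM). The 7 markers of liver, stroma and endothelium summed to 25.2 to 39.2 CPM. Ttr was at the floor in every group, Afp was above 1 CPM in every library (at most 36.5 CPM), and Alb was above the floor in ETV6-RUNX1 fetal liver replicate 3 (0.360 CPM). Of the 6 granulocyte markers Ly6g was at the floor in every group and Ltf was at 0.680 to 25.7 CPM, and the sums by group stand beside the results.

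Of the 80 members, 77 reached 1 CPM in 3 or more of the 12 libraries and were tested. The members not tested were Rpl3l, Rpl10l and Rpl39l, paralogs known from muscle and testis. Rpl10l, the retrogene of Rpl10, had 1 read in all libraries together. Rpl3l, the muscle paralog of Rpl3, stayed between 0.027 and 0.51 CPM. Rpl39l, the testis paralog of Rpl39, lay between 0.031 and 0.66 CPM in the 9 libraries of the other groups. With the fusion in bone marrow it reached 1.19, 0.587 and 0.712 CPM, above most but not all of the others. These paralogs were thus far below the members tested, of which Rpl24 was the lowest.

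Promoter windows from RefSeq (GRCm38.p6, 250 bases before to 50 bases after an annotated start) were at hand for 60 of the 80 members, 72 windows in all. The stretches below run from 40 bases before the start to base 15 of the transcript and are given on the gene's strand. They are shown for 9 of the 11 members whose share of ribosomal protein reads changed between the genotypes in fetal liver (values further on), since the first bases of these transcripts are where the TOP motif lies. Capitals mark the longest unbroken run of C and T in the stretch. The first 4 lines are members that lost share and the last 5 are members that gained share.
Rpl28, chr7:4792925-4792979, plus strand: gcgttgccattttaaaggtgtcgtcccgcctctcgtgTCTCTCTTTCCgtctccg
Rpl15, chr14:18270972-18271026, minus strand: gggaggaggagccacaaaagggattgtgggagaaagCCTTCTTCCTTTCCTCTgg
Rpsa, chr9:120127726-120127780, plus strand: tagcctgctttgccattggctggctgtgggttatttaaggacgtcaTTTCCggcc
Rps26, chr10:128626492-128626546, minus strand: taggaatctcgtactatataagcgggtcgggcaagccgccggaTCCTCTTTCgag
Rps9, chr7:3704001-3704055, plus strand: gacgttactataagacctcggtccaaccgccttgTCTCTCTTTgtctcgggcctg
Rpl41, chr10:128549154-128549208, minus strand: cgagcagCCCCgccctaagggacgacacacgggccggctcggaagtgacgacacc
Rpl9, chr5:65391417-65391471, minus strand: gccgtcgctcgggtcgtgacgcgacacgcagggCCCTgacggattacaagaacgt
Rps24, chr14:24490638-24490692, plus strand, 1 of 2 annotated starts: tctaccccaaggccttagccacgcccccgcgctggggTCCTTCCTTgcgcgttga
Rps27, chr3:90213634-90213688, minus strand: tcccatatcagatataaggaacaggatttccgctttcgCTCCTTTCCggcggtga

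The pyrimidine run was 17 bases long in Rpl15 and 11 in Rpl28. It was 9 bases in Rps26, Rps9, Rps24 and Rps27, 5 in Rpsa and 4 in Rpl41 and Rpl9. Of the 2 annotated starts of Rps24, the one shown was chosen by the length of its run. The marked runs of Rpl41 (positions -33 to -30) and Rpl9 (-7 to -4) lay before the transcript. Rpl41 had another run of 4 bases, also before the start, and the first was marked. Runs of 9 bases were thus found both among members that lost share and among members that gained it. The annotated start can differ from the start used in these cells, so a short run says only that these letters are not at the annotated start. For Rpl28 the gene position given further on begins before the stretch shown.

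Among the 72 member windows, 45.8% held a run of at least 8 pyrimidines on the gene's strand within 25 bases of the start, against 19.7% of the 32851 windows in the RefSeq table. A start on C followed by at least 4 pyrimidines was found in 18.1% of member windows and 2.51% of all windows. These 2 features overlap. The letters CCGGAAG, a core bound by ETS factors, were present on either strand in 36.1% of member windows and 8.86% of all windows. The YY1 letters AAGATGGC were present in 9.72% and 2.75%, and the E-box CACGTG in 11.1% and 7.15%. TGTGGT, a core bound by RUNX factors, was present in 6.94% of member windows and 16.8% of all windows. Several members have more than 1 window, and a match is a description of letters, not of a bound factor.

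In fetal liver the ribosomal protein genes were lower with the fusion, nearly all of them and by similar amounts. The 80 members took 12.3%, 12.0% and 14.0% of the reads of the WT fetal liver libraries and 6.49%, 7.47% and 6.77% of those of the ETV6-RUNX1 libraries. The libraries of the genotypes did not overlap, and the mean share was 12.8% ± 1.10 (SD, n = 3) in WT and 6.91% ± 0.505 with the fusion, 1.85 times lower. In bone marrow the shares were 13.2%, 10.3% and 9.32% in WT and 7.60%, 8.25% and 10.9% with the fusion. Here the libraries overlapped, with ETV6-RUNX1 replicate 3 above WT replicates 2 and 3, and the means of 10.9% ± 2.01 and 8.92% ± 1.76 differed 1.23 times.

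**Figure D1:**
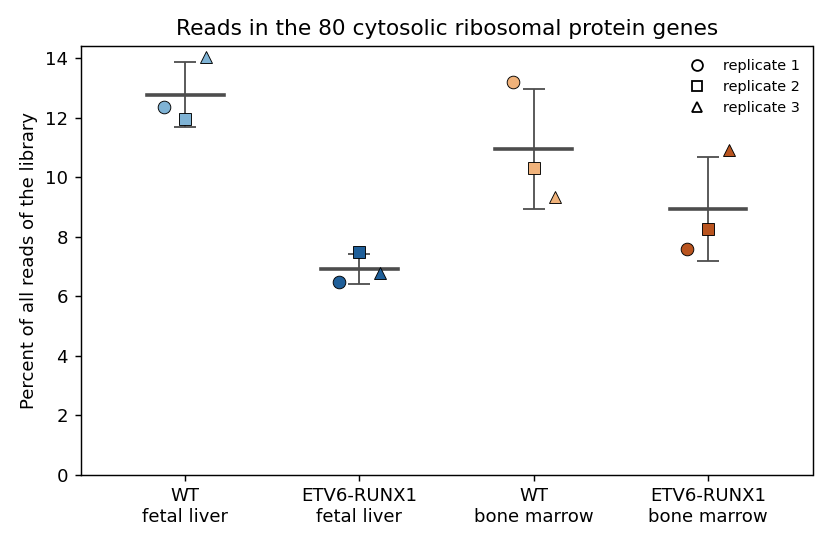
Percent of all reads of a library that fell in the 80 cytosolic ribosomal protein genes (y axis, from 0) for each of the 12 libraries, by group (x axis). Symbols are replicates, the horizontal line is the group mean and the bar its SD. The 3 ETV6-RUNX1 fetal liver libraries lie at 6.49% to 7.47%, below the other 9 libraries, while the bone marrow groups overlap.

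Both subunits moved together. Genes of the small subunit held 41.6% ± 0.145 of ribosomal protein reads in WT fetal liver and 41.8% ± 0.484 with the fusion. In bone marrow they held 40.9% ± 0.636 in WT and 41.9% ± 0.517 with the fusion. The small subunit fell 1.84 times and the large subunit 1.86 times as a share of all reads in fetal liver.

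Every member tested had a negative fold change in fetal liver, and 74 of 77 were lower at an adjusted p under 0.05 in limma, with none higher. Over all 14271 genes tested, 18.3% were called lower and 24.8% higher in this comparison. In 74 of the 77 members all 3 ETV6-RUNX1 libraries lay below all 3 WT libraries, against 23.3% of all genes. The median log2 fold change was -0.90 for the members and 0.08 for all genes tested, and members ranged from -1.31 (Rpl28) to -0.29 (Rpl24). The small subunit had 29 of 31 members called and a median of -0.91, and the large subunit had 45 of 46 and a median of -0.88. The call count was between 67 and 75 under the other scalings, filters and tools.

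Other shares of the libraries moved with this result. The 13 mitochondrial protein genes fell from 0.819% to 0.505% of reads in fetal liver, a ratio of 0.617. The summed level of the 10 stem cell markers was 2037 to 2506 CPM in WT and 4675 to 4918 CPM in ETV6-RUNX1 fetal liver. In limma 9 of the 10 rose, against 24.8% of all genes. The 5 megakaryocyte markers summed to 2923 to 4413 CPM in WT and 6821 to 7287 CPM with the fusion. Most of that sum was Pf4 (2229.6, 2037 and 3149 CPM in WT and 4623, 4995 and 4829 CPM with the fusion, adjusted p = 0.143). Of the 5, Gp1ba and Itga2b rose, Gp9 fell (457, 268 and 436 CPM to 262, 208 and 169 CPM), and Pf4 and Ppbp did not pass. The 7 erythroid markers summed to 729 to 1010 and 1426 to 2207 CPM. Most of that sum was Hbb-bt (648, 888 and 908 CPM in WT and 1238, 1633 and 1961 CPM with the fusion). Of the 6 erythroid markers tested 5 rose. Klf1, under 1 CPM in each of these libraries, did not pass (-0.49). The 6 macrophage markers summed to 40.2 to 47.5 and 113 to 120.1 CPM, with C1qa at the floor. Most of it was Cd68 (38.7 to 47.1 CPM in WT and 99.2 to 109 CPM with the fusion). Granulocyte markers summed to 39.4 to 137 CPM in WT and 12.6 to 20.4 CPM with the fusion. The part of these differences in the fall of the ribosomal protein genes was not tested.

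**Figure D2:**
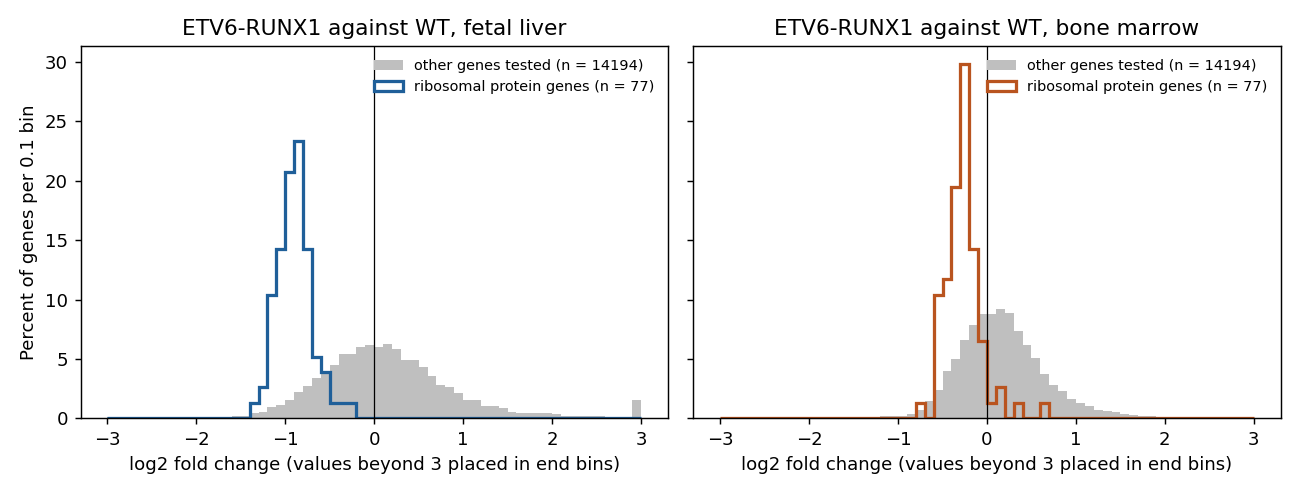
Distribution of log2 fold changes, ETV6-RUNX1 against WT, on the log2(CPM + 1) scale (x axis) as percent of genes per bin (y axis), for ribosomal protein genes (coloured outline) and the other genes tested (grey), in fetal liver (left) and bone marrow (right). The members form a narrow peak around -0.90 in fetal liver and around -0.28 in bone marrow.

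Large subunit core proteins were among those that fell furthest. Rpl28 (chromosome 7, 4792874 to 4795066, plus strand, GRCm38) is a eukaryote-specific protein. Its level was 991, 877 and 1077 CPM in WT and 355, 438 and 392 CPM in ETV6-RUNX1 fetal liver. All libraries with the fusion lay far below all WT libraries. The log2 fold change was -1.31 (SE 0.19, adjusted p = 0.000111), a 2.49-fold lower mean. The gene overlaps exons of Ube2s on the opposite strand, and the use of strand in counting is not given, but Ube2s averaged 7.87 CPM.

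Rpl15, whose start carries the 17-base pyrimidine run shown above, is a core protein of the large subunit and a Diamond-Blackfan anaemia gene. It was measured at 1561, 1533 and 1759 CPM in WT fetal liver and 607, 801 and 665 CPM with the fusion. Bone marrow levels were 1589, 1284 and 1130.0 CPM in WT and 730.0, 672 and 1017 CPM with the fusion. In neither source did the genotypes overlap. The fetal liver log2 fold change was -1.23 (SE 0.17, adjusted p = 7.46e-05). Bone marrow gave -0.73 (SE 0.17, adjusted p = 0.0106), where no other member had a larger fall.

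Rpl3 helps shape the peptidyl transferase centre. Levels of Rpl3 were 4199, 3697 and 4133 CPM in WT and 1962, 2121 and 1708 CPM in ETV6-RUNX1 fetal liver. In bone marrow they were 4387, 4103 and 3577 CPM in WT and 2452, 2388 and 3307 CPM with the fusion, again without overlap. The log2 fold changes were -1.06 (SE 0.15, adjusted p = 9.8e-05) and -0.58 (SE 0.15, adjusted p = 0.0189). Rpl10, which joins late in maturation of the large subunit, fell in fetal liver by 0.67 on the log2 scale (SE 0.16, adjusted p = 0.00368). In bone marrow its difference was -0.24 (adjusted p = 0.308). Rpl39, a short protein of the exit tunnel, fell by 0.79 in fetal liver (adjusted p = 0.00221), and its bone marrow difference was -0.14 (adjusted p = 0.615).

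Rpl5 and Rpl11 form a complex with 5S ribosomal RNA that also binds MDM2 and so links ribosome assembly to p53. Rpl5 was at 1339, 1392 and 1484 CPM in WT and 675, 683 and 593 CPM in ETV6-RUNX1 fetal liver, with no overlap and the smallest adjusted p of any member (log2 fold change -1.11, SE 0.14, adjusted p = 3.09e-05). Its bone marrow levels were 1285, 1030.0 and 1092 CPM in WT and 721, 733 and 980.3 CPM with the fusion, also without overlap (-0.49, SE 0.14, adjusted p = 0.0265). Rpl11 was at 1223, 1199 and 1459 CPM in WT and 620.0, 747 and 645 CPM in ETV6-RUNX1 fetal liver. It fell by 0.95 (SE 0.18, adjusted p = 0.000906) there, and its bone marrow difference of -0.42 (adjusted p = 0.12) did not pass. Rpl5 overlaps exons of Fam69a on the opposite strand, which averaged 46.3 CPM.

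The stalk of the large subunit, built from Rplp0, Rplp1 and Rplp2, recruits the elongation factors. All 3 fell in fetal liver, and none of the 3 passed in bone marrow. Rplp0 was at 3799, 3504 and 3943 CPM in WT and 1750.2, 2050.4 and 1660.2 CPM in ETV6-RUNX1 fetal liver, a non-overlapping difference of -1.05 (SE 0.16, adjusted p = 0.000148). Rplp2 fell by 0.97 and Rplp1 by 0.74. The bone marrow differences were -0.47 for Rplp0 (adjusted p = 0.0515), -0.26 for Rplp2 and -0.06 for Rplp1.

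Rpl38, needed for translation of Hox mRNAs in the mouse embryo, was at 524, 574 and 671 CPM in WT and 268, 269 and 278 CPM in ETV6-RUNX1 fetal liver. The fusion libraries were tightly grouped and far below WT (-1.11, SE 0.19, adjusted p = 0.000318). In bone marrow its difference was -0.25 (adjusted p = 0.361). Rpl22, whose loss is known to disturb lymphocyte development, fell in fetal liver by 0.87 (SE 0.16, adjusted p = 0.000594), and its difference was -0.16 in bone marrow (adjusted p = 0.51). Its paralog Rpl22l1, which Rpl22 is known to repress, fell alongside it in fetal liver, by 0.83 (SE 0.17, adjusted p = 0.00157), from 328, 435 and 493 CPM to 223, 223 and 252 CPM.

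**Figure D3:**
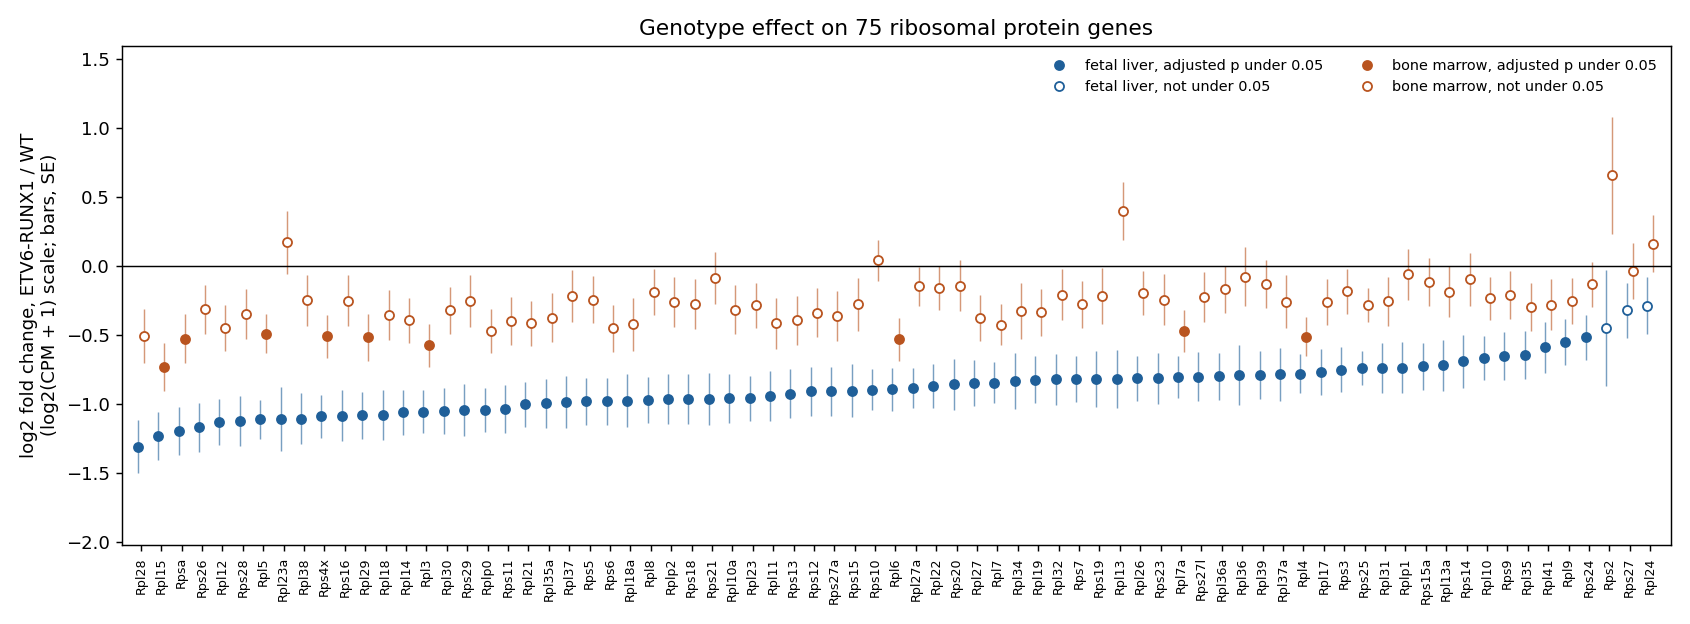
Fitted log2 fold change, ETV6-RUNX1 against WT (y axis, log2(CPM + 1) scale), of 75 of the 77 ribosomal protein genes tested (x axis, ordered by the fetal liver value). Blue points are fetal liver and orange points bone marrow, filled where the limma adjusted p was under 0.05, and bars are SE. The blue points run from -1.31 to -0.29 with 72 of 75 filled, and 9 orange points are filled.

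Rps19, the gene most often mutated in Diamond-Blackfan anaemia, was at 3726, 3546 and 4327 CPM in WT and 1863, 2616 and 2130.5 CPM in ETV6-RUNX1 fetal liver. The groups did not overlap (-0.82, SE 0.20, adjusted p = 0.00514). Bone marrow levels of 4033, 3175 and 2559.7 CPM in WT and 2195, 2639 and 3573 CPM with the fusion overlapped (-0.22, adjusted p = 0.473). Rps14, whose loss of 1 copy underlies the anaemia of the 5q- syndrome, fell in fetal liver by 0.69 (SE 0.19, adjusted p = 0.0099), and was at -0.10 in bone marrow (adjusted p = 0.749). Of the 18 Diamond-Blackfan genes on a list, 17 fell in fetal liver and 2 in bone marrow (Rpl15 and Rpl5), with medians of -0.92 and -0.31. Over all 77 members tested these counts were 74 and 9, and 18.3% and 4.93% of all genes were called lower. Among the 18 listed genes only Rps27 did not pass in fetal liver.

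Rpsa, the ribosomal protein also known as the laminin receptor, was at 3269, 2738 and 3214 CPM in WT and 1294, 1541 and 1193 CPM in ETV6-RUNX1 fetal liver (-1.20, SE 0.18, adjusted p = 0.000113). Its genotype groups did not overlap in fetal liver. In bone marrow its difference was -0.53 with an adjusted p of 0.0493, the groups overlapped, and the call was lost in 17 of 25 other settings (adjusted p up to 0.180). Rps4x, an X-linked protein of the 40S body, fell in both sources, by 1.09 (SE 0.16, adjusted p = 8.18e-05) and 0.51 (SE 0.16, adjusted p = 0.0334). All 4 X-linked members on a list (Rps4x, Rpl10, Rpl36a and Rpl39) fell in fetal liver, and Rps4x alone passed in bone marrow.

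The 3 members not called in fetal liver were Rps27, Rps2 and Rpl24. Rps27, a zinc finger protein, was at 1144, 1236 and 1497 CPM in WT and 885, 1194 and 1019 CPM with the fusion, which overlapped (-0.32, 95% confidence interval -0.76 to 0.11, adjusted p = 0.21). Its paralog Rps27l, a p53 target that replaces Rps27 in some ribosomes, did fall, from 473, 460.3 and 629 CPM to 272, 299 and 314 CPM (-0.80, SE 0.18, adjusted p = 0.00243). Rps27l is itself a member by the name rule.

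Rps2, which lies at the mRNA entry channel, varied more within groups than between them. It was at 964, 969.7 and 462 CPM in WT and 594, 438 and 649 CPM with the fusion in fetal liver. Bone marrow levels were 211, 526 and 609.9 CPM in WT and 803, 967 and 341 CPM with the fusion. Its confidence intervals were wide, -1.35 to 0.45 in fetal liver and -0.25 to 1.56 in bone marrow. Rpl24, of the subunit interface, had only 4.43 to 8.88 CPM across the 12 libraries, and its interval in fetal liver was -0.73 to 0.15. The annotated transcript Gm28037 overlaps its exons on the same strand and is at 0 CPM in these libraries. How reads shared by the pair were assigned is not given, so the level of Rpl24 is uncertain.

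In bone marrow 9 of the 77 members were called lower and none higher, where 4.93% of all genes were called lower and 14.4% higher. The 9 were Rpl15, Rpl3, Rpl6, Rpsa, Rpl29, Rpl4, Rps4x, Rpl5 and Rpl7a, with log2 fold changes from -0.73 to -0.47. All 9 were also called in fetal liver, 65 members were called in fetal liver alone, and 3 in neither. Levels of Rpl6, a large subunit protein, were 1727, 1338 and 1293 CPM in WT and 887, 917 and 1206 CPM with the fusion in bone marrow, without overlap (-0.54, SE 0.16, adjusted p = 0.0282). The members' median was -0.28 beside 0.13 for all genes, and 72 of the 77 values were negative. In 9 members the genotypes did not overlap, with all fusion libraries lower, against 10.9% of all genes.

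Single libraries set the bone marrow count. It was 28 without ETV6-RUNX1 replicate 3, 4 without WT replicate 2, 1 without WT replicate 1 or without ETV6-RUNX1 replicate 1, and 0 without ETV6-RUNX1 replicate 2. The median stayed negative in each case, between -0.43 and -0.11. Of 25 other settings, Rps4x lost its bone marrow call in 8, Rpl3, Rpl5 and Rpl6 in 6 each, and Rpl15 in 1.

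Some marker sums differed between the bone marrow groups too, while those of the erythroid and megakaryocyte markers overlapped between the genotypes. The 6 granulocyte markers summed to 4.26 to 101 CPM in WT and 1.76 to 3.16 CPM with the fusion, and WT replicate 1 held the most S100a8 (49.4 CPM), S100a9 (23.2 CPM) and Elane (17.3 CPM). The 10 stem cell markers summed to 2285 to 3440 CPM in WT and 3492 to 3943 CPM with the fusion. Of the 10, 5 rose, against 14.4% of all genes. Ly6a, on this list, went from 179, 54.1 and 38.4 CPM in WT to 282, 601 and 629 CPM with the fusion. Kit and Slamf1 overlapped between the genotypes. The 7 erythroid markers summed to 234 to 518 and 420.2 to 633 CPM, and the 6 macrophage markers to 34.6 to 55.8 and 83.0 to 106 CPM. Most of the erythroid sum was Hbb-bt (456, 196 and 239 CPM in WT and 366, 533 and 567 CPM with the fusion). Most of the macrophage sum was Cd68 (33.9 to 54.9 CPM in WT and 80.3 to 103 CPM with the fusion). The 5 megakaryocyte markers summed to 1169 to 1629 CPM in WT and 331 to 1917 CPM with the fusion. None of the 6 erythroid markers tested passed, and 1 of the 5 megakaryocyte markers was called lower and none higher. Over all genes 4.93% were called lower and 14.4% higher. The part of these markers in the bone marrow result was not tested.

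The 5 members with positive bone marrow values were Rps2 (0.65), Rpl13 (0.40), Rpl23a (0.17), Rpl24 (0.16) and Rps10 (0.04), none of which passed. Rpl13, a large subunit protein, was at 1628, 3060.0 and 2657 CPM in WT bone marrow and 2625, 2950.2 and 3891 CPM with the fusion. WT replicate 1 stood well below the others, although the same library had the largest summed share of ribosomal protein reads in its group. In fetal liver Rpl13 was at 3559.9, 3381 and 3739 CPM in WT and 1754, 2168 and 2149 CPM with the fusion, which did not overlap.

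The fall was larger in fetal liver than in bone marrow for all 77 members, and 6 passed the test of that difference, the interaction of genotype and source, against 3.62% of all genes called in this direction and 5.56% in the other. Among them were Rpl23a (-1.28), Rpl13 (-1.22), Rps10 (-0.94), Rps26 (-0.86) and Rpl27a (-0.73). The median interaction was -0.61 for the members and -0.05 for all genes. At an unadjusted p under 0.05 there were 54 members in limma, 24 in edgeR, and 28 to 71 in limma with a library left out. The share of all genes at that unadjusted threshold was not counted, so these counts have no background.

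Rps10, a small subunit protein at the mRNA entry, gave the smallest interaction p of the members. Its fetal liver levels were 629.9, 609.9 and 742 CPM in WT and 339, 344 and 375 CPM with the fusion. Bone marrow levels were 585, 456 and 423 CPM in WT and 431, 492 and 577 CPM with the fusion. The genotypes were far apart in fetal liver (-0.90, SE 0.15) and interleaved in bone marrow (0.04, SE 0.15), an interaction of -0.94 (SE 0.21, adjusted p = 0.0133).

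Rpl23a, which docks nascent chain factors at the tunnel exit, was at 88.4, 105 and 122 CPM in WT and 37.0, 43.9 and 67.4 CPM with the fusion in fetal liver. In bone marrow it was at 104, 69.4 and 66.4 CPM and 80.4, 76.8 and 111 CPM. The fetal liver groups were separate and the bone marrow groups were not (interaction -1.28, SE 0.33, adjusted p = 0.0261). Rps26, which contacts mRNA upstream of the start codon, fell from 1138, 1231 and 1425 CPM to 531, 543 and 605 CPM in fetal liver, and its bone marrow difference was -0.31 (adjusted p = 0.228, interaction adjusted p = 0.0481). Of 24 other settings, the interaction call was lost in 17 for Rps26, 9 for Rpl23a, 4 for Rpl13 and 1 for Rps10. The number of members with an interaction call ran from 1 to 49 as single libraries were left out, with 49 when WT bone marrow replicate 1 was left out. It was 58 with array weights and 1 in edgeR. Calls over all 14271 genes moved as well, from 1311 to 2332 without that library, 3637 with array weights and 1105 in edgeR.

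**Figure D4:**
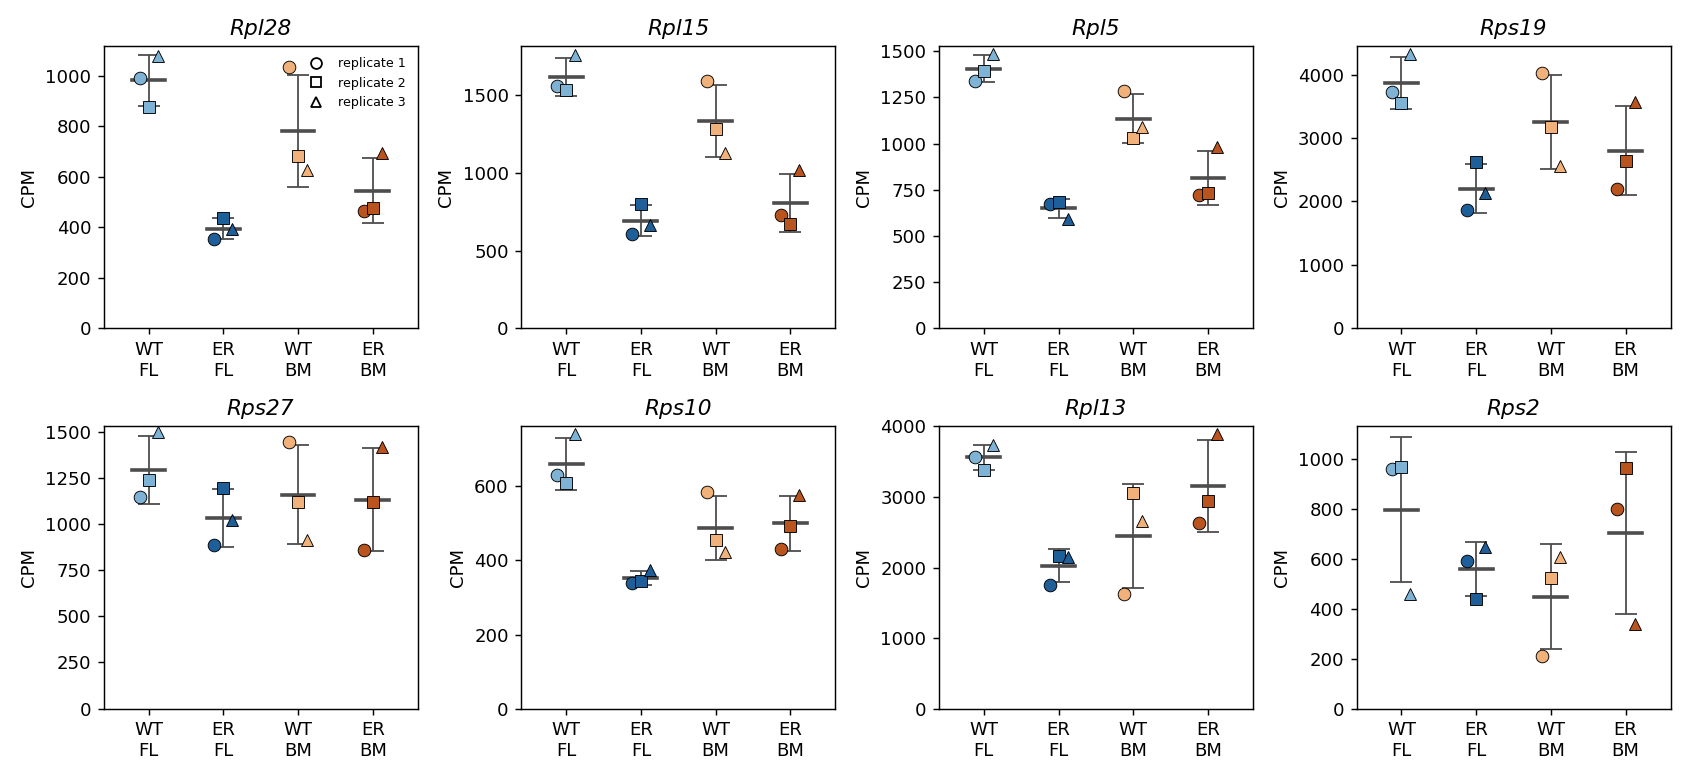
CPM (y axis, from 0) of 8 ribosomal protein genes in the 12 libraries, by group (x axis; FL, fetal liver, BM, bone marrow, ER, ETV6-RUNX1). Symbols are replicates, lines are group means and bars are SD. Rpl28, Rpl15, Rpl5, Rps19, Rps10 and Rpl13 separate by genotype in fetal liver, Rps27 overlaps, and Rps2 varies more within groups than between them.

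Source alone, in WT cells, did not pass for any member in limma. With WT fetal liver set against WT bone marrow 75 of 77 values were positive and the median was 0.29, beside -0.07 for all genes. No member of 77 was called (over all genes 3.38% were called higher and 7.77% lower), and 9 had an unadjusted p under 0.05. EdgeR called 0 (8 at an unadjusted p under 0.05) and DESeq2 called 2. The share of all genes at the unadjusted threshold was not counted. Array weights gave 39 calls and leaving out WT bone marrow replicate 1 gave 20, all higher in fetal liver. Calls over all 14271 genes rose too. With array weights 1353 genes were called higher and 3048 lower, and without that library 708 higher and 2073 lower. Without either change these were 482 and 1109. Rpl3 and Rpl24 were closest to equal, at 0.00 (95% confidence interval -0.33 to 0.33) and 0.01 (-0.43 to 0.45).

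Within ETV6-RUNX1 cells the same contrast gave negative values for all 77 members. Fetal liver was lower than bone marrow for 13 members, and higher for none, where 18.2% of all genes were called lower and 10.4% higher, so the share of members called (13 of 77) was near that of all genes. In 38 of 77 members all fetal liver libraries lay below all bone marrow libraries, against 27.8% of all genes. Members' median was -0.35 and that of all genes -0.16. Rpl23a (-0.87, adjusted p = 0.0124), Rpl13 (-0.63, adjusted p = 0.0379) and Rpl22 (-0.62, adjusted p = 0.00998) were furthest below, and of 25 other settings these calls were lost in 4, 12 and 3. The count was 0 under median-of-ratios scaling and in edgeR, 42 after quantile normalization, and 1 without ETV6-RUNX1 bone marrow replicate 3.

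To ask which members departed from the common fall, each library was scaled to the same total of ribosomal protein reads and the same test was run. On this scale 66 of the 77 members did not pass in fetal liver, 6 fell and 5 rose, while 63.3% of all genes tested passed in either direction. The scaling holds the summed level of the members equal and raises other genes in the fusion libraries. The small number of member calls beside 63.3% therefore follows from the scaling. The same limit holds for each background given on this scale. Those that lost share included Rpl28 (-0.43), Rpl15 (-0.35), Rpsa (-0.31) and Rps26 (-0.29). The 5 that gained share were Rps27 (0.56), Rps24 (0.37), Rpl9 (0.33), Rpl41 (0.29) and Rps9 (0.23), and the start sequences of these 5 are shown above.

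Rps27 went from 0.927%, 1.03% and 1.07% of ribosomal protein reads in WT fetal liver to 1.36%, 1.60% and 1.51% with the fusion. All fusion libraries were above all WT libraries (adjusted p = 0.000897). Rps27, with no call on the scale of all reads, thus gained most within the ribosomal protein reads. This gain restates that it fell less than most members. Rpl28 went from 0.803%, 0.734% and 0.768% to 0.547%, 0.587% and 0.580%, without overlap (adjusted p = 0.00502). Rpl15 went from 1.26%, 1.28% and 1.25% to 0.935%, 1.07% and 0.982% (adjusted p = 0.00937). In bone marrow Rpl15 was the only member to pass on this scale, going from 1.20%, 1.25% and 1.21% to 0.961%, 0.815% and 0.932% (-0.44, adjusted p = 0.0128, background 17.6%). The number called in fetal liver was 8 to 12 with a library left out. Rps26 was called in 7 of 12 such fits, Rpl41, Rps9 and Rpsa in 11, and Rpl28, Rpl15, Rps27, Rps24 and Rpl9 in 12.

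No member passed an interaction of genotype and source on the scale of ribosomal protein reads, where 9.04% of all genes did. Between sources, Rpl4 took a smaller share in WT fetal liver (3.35%, 3.43% and 3.19%) than in WT bone marrow (4.12%, 4.47% and 4.68%), with no overlap (-0.41, adjusted p = 0.0237, background 7.04%). Rpl41, the shortest ribosomal protein, took a larger share in ETV6-RUNX1 fetal liver than in ETV6-RUNX1 bone marrow (0.32, adjusted p = 0.0278, background 16.6%).

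**Figure D5:**
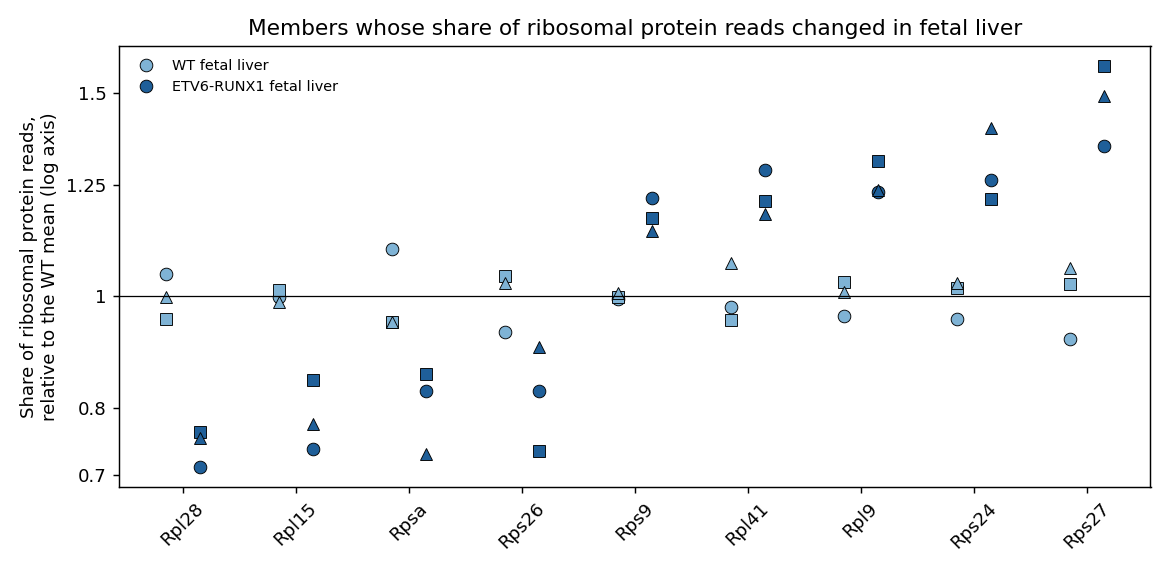
Share of ribosomal protein reads, relative to the WT fetal liver mean (y axis, log axis), of 9 of the 11 members called on that scale in fetal liver (x axis). Light symbols are WT and dark symbols ETV6-RUNX1 fetal liver libraries (circle, square and triangle for replicates 1, 2 and 3). The 4 members at the left lie below the line with the fusion and the 5 at the right above it, with no overlap of the genotypes.

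Levels between members were compared as CPM per kilobase of exon. Rpl32 and Rpl36 ranked first and second of all members in all 4 groups, at 4605 and 4197 CPM per kb in WT fetal liver and 2599.8 and 2429 in ETV6-RUNX1 fetal liver. Rpl24, whose level is uncertain for the overlap given above, and Rpl23a had the lowest values of the members tested, at 6.36 and 124 CPM per kb in WT fetal liver. Exon length here joins all annotated isoforms, so genes with long rare isoforms are placed too low. How reads shared with the many processed pseudogenes of these genes were assigned is not given, and levels of single members are uncertain to that extent.

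The 248 pseudogenes named after 55 of the members held 4.25% ± 0.651 as many reads as the members in WT and 5.38% ± 1.61 in ETV6-RUNX1 fetal liver. In fetal liver the genotypes overlapped. In bone marrow the percentage was 4.37% ± 0.301 in WT and 7.40% ± 0.660 with the fusion, without overlap. As a share of all reads the pseudogenes were 0.678 times as high with the fusion in fetal liver and 1.36 times as high in bone marrow. On that scale the genotypes overlapped in both sources. With each member's pseudogenes added to it, 74 of 77 members passed in fetal liver and 8 in bone marrow.

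The ribosomal proteins outside the name rule were measured alongside. Rps3a1, of the small subunit, fell in fetal liver by 1.20 (SE 0.15, adjusted p = 2.04e-05) and in bone marrow by 0.49 (SE 0.15, adjusted p = 0.0307). Its bone marrow call was lost in 8 of 25 other settings (adjusted p up to 0.119). Rack1, the scaffold at the 40S head, was at 2127, 1983 and 2137 CPM in WT and 1048, 1145 and 1001 CPM in ETV6-RUNX1 fetal liver, without overlap (-0.97, SE 0.13, adjusted p = 6.63e-05). Fau, a ubiquitin-like fusion with a small subunit protein, was at 807, 729.6 and 908 CPM in WT and 532, 664 and 563 CPM with the fusion. Its groups did not overlap, and its difference of -0.48 had an adjusted p of 0.0566.

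Most translation factor genes were also lower in fetal liver, while genes of mTOR signalling had no common direction. Over all genes 18.3% were called lower and 24.8% higher in fetal liver, and 4.93% and 14.4% in bone marrow. Of 8 genes on an elongation list 7 fell and none rose, with a median of -0.87. The list also held Eef1e1 and Tpt1, which are not elongation factors themselves. Eef1e1 (-1.26, adjusted p = 1.46e-05), Eef1g (-1.03) and Eef1b2 (-0.92) had the smallest p, and Tpt1 did not pass. Eef1a1, which brings aminoacyl-tRNA to the ribosome, fell by 0.76. In bone marrow Eef1g (-0.61, adjusted p = 0.0112) and Eef1a1 (-0.55, adjusted p = 0.0199) fell and the other 6 did not pass. Of 25 other settings, the bone marrow call was lost in 1 for Eef1g and 5 for Eef1a1 (adjusted p up to 0.196).

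Of 29 initiation factor genes 19 fell and 1 rose in fetal liver, with a median of -0.59, where 18.3% of all genes were called lower and 24.8% higher. Eif3i (-1.16, adjusted p = 1.22e-05) and Eif3l (-0.88) encode subunits of the eIF3 scaffold, and Eif4a1, which fell by 1.00, encodes the helicase that unwinds mRNA leaders. Eif4a2, the paralog of Eif4a1, was the gene that rose (0.52, adjusted p = 0.00697). In bone marrow 6 fell and 2 rose, where 4.93% of all genes were called lower and 14.4% higher. Eif4e (-0.59) had the smallest p, and Eif4g1 (0.82) and Eif4h (0.52) were those that rose.

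Other genes with TOP mRNAs or a role in folding new chains followed, with 8 of 10 lower and none higher in fetal liver. In bone marrow 5 were lower and 1 higher. Of all genes, 18.3% were called lower and 24.8% higher in fetal liver, and 4.93% and 14.4% in bone marrow. Npm1, the nucleolar chaperone, was at 3082, 3679.8 and 3729.6 CPM in WT and 1233, 1184 and 1186 CPM in ETV6-RUNX1 fetal liver. The groups were far apart (-1.54, SE 0.15, adjusted p = 2.15e-06), and Npm1 also fell in bone marrow (-0.78, adjusted p = 0.00305). Hnrnpa1 fell by 1.25 and 0.62 and Impdh2 by 1.14 and 0.81 in the same order of sources. Vim, on the same list, was the gene that rose in bone marrow (0.89, adjusted p = 0.00112).

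Of 20 tested genes for subunit maturation and ribosomal protein chaperones 13 fell and none rose in fetal liver, and 5 fell and 1 rose in bone marrow. The shares of all genes called lower and higher were 18.3% and 24.8% in fetal liver and 4.93% and 14.4% in bone marrow. Mrto4 (-1.36), which primes the stalk site, Grwd1 (-1.31), the chaperone of Rpl3, and Pa2g4 (-1.23) fell furthest. Sbds and Efl1, which release Eif6 from the large subunit, were at 0.00 and 0.02 in fetal liver. The chaperone of Rps26, Tsr2, fell by 0.76.

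Among 15 genes of mTOR signalling and TOP control, 3 rose and 2 fell in fetal liver, with a median of 0.06, where 24.8% of all genes were called higher and 18.3% lower. These counts were near the shares over all genes. Mtor (0.59, adjusted p = 0.0254), Tsc2 (0.70) and Rps6kb2 (0.38) rose, and Eif4ebp1 (-0.56) and Eif4ebp2 (-0.99), which encode repressors of cap-dependent translation, fell. The call of Mtor was lost in 6 of 25 other settings (adjusted p up to 0.119, with a value of 0.35 after quantile normalization). Larp1, the TOP mRNA binding protein, was at 0.06. In bone marrow 1 gene passed, Akt1s1 (1.90, adjusted p = 0.00297), at 5.03, 4.19 and 3.51 CPM in WT and 26.4, 25.1 and 9.25 CPM with the fusion.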

How the data were processed

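Libraries were made from total RNA with a stranded low-input kit and sequenced from both ends, per the labels' protocols. The authors deposited CPM per gene, and the submitters' processing notes name GRCm38, STAR 2.5.1a, featureCounts 1.4.6-p5 and Salmon 0.8.2 without a role. The use of strand and the annotation are not given in the sources used here. All CPM values (100%) were whole multiples of 1 read within 0.01, so reads were recovered. Entries that repeated a gene ID (276 of 40757) were dropped. A floor of 3 reads and all precision cover counting error only, since reads are not independent molecules.

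log2(CPM + 1) was tested in limma 3.58.1 (R 4.3.3; trended eBayes, two-sided, 4 group coefficients, 8 residual degrees of freedom) on the 14271 genes that reached 1 CPM in 3 or more libraries, with Benjamini-Hochberg adjustment over all of them and a threshold of 0.05. Every fold change is on that log2 scale and understates low genes. The scripts were tested on simulated data.

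The members and the 19 lists (8 of markers) were chosen with earlier results of these data known. Genes were named by a rule: a set of members always named, the 3 largest rises and falls among non-overlapping called members of each comparison, and up to 3 called genes per list by p. All other genes named, such as Rps2, Rpl24, Rpl13 in fetal liver, and the members called in bone marrow or by share, were chosen after their values were seen. Alternatives were a pseudocount of 0.1, no filter, a mean of at least 5 CPM, median-of-ratios and quantile scaling, 2 rescalings to protein-coding reads, the replicate block, array weights, edgeR 4.0.16 and DESeq2 1.42.0 on recovered reads, only the 6 libraries compared, pseudogenes summed in, and leaving out each of the 12 libraries. Scaling to equal ribosomal protein totals was added after seeing the data. Positions are from GENCODE M21 (GRCm38), in which all 80 members were found. Values of single genes for some members and list genes are not reported here, though these genes stay in every count.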

Additional observations from a re-analysis of the deposited data

Results flagged for a closer look

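For 5 ribosomal protein genes reported here the effect of the fusion differed between fetal liver and bone marrow in limma's test of that difference (adjusted p under 0.05, log2 scale, fetal liver minus bone marrow). The difference was -1.28 for Rpl23a, -1.22 for Rpl13 and -0.94 for Rps10. It was -0.86 for Rps26 and -0.73 for Rpl27a. Rpl27a went from 596, 592 and 699.8 CPM in WT to 320.1, 354 and 345 CPM with the fusion in fetal liver, and from 589, 464 and 429.9 CPM to 388, 432 and 513 CPM in bone marrow. On the scale of ribosomal protein reads, which takes out the change common to the members by construction, no member passed this test.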

How the results depend on the processing

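The fall in fetal liver held throughout, with 71 to 74 members called when single libraries were left out and medians between -0.95 and -0.83. No median changed its sign under any setting, and no named gene reversed. Of 49 genes named for fetal liver, 14 of 1225 values under other settings lost their call, and of 25 named for bone marrow, 101 of 625 did. For the interaction this was 136 of 408 values of 17 genes, between sources in ETV6-RUNX1 cells 140 of 525 values of 21 genes, and in WT 1 of 25 values of 1 gene. Scaling moved the median of all genes: in fetal liver it was 0.08, and -0.10 after quantile normalization, when the members' median was -0.73. Relative to all genes the members' median was -0.98 in limma and -0.62 after quantile normalization in fetal liver, and -0.41 and -0.10 in bone marrow.

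In bone marrow the 9 calls became 1 with no filter, 5 after quantile normalization, 14 in edgeR, 19 in DESeq2 and 1 with only the 6 libraries compared, and 0 to 28 with a library left out (medians -0.43 to -0.11). The 6 interaction calls became 1 with no filter, 3 under median-of-ratios scaling, 27 after quantile normalization, 58 with array weights, 1 in edgeR and 3 in DESeq2, and 1 to 49 with a library left out (medians -0.77 to -0.44). Between sources in WT, array weights gave 39 calls, DESeq2 2, and leaving out a library 0 to 20 (medians 0.17 to 0.44). Array weights raised the calls over all genes too, from 1311 to 3637 for the interaction and from 1591 to 4401 between sources in WT. Between sources in ETV6-RUNX1 cells the 13 calls became 2 with no filter, 0 under median-of-ratios scaling, 42 after quantile normalization, 23 with array weights, 0 in edgeR and 1 in DESeq2, and 1 to 27 with a library left out (medians -0.47 to -0.20). The cause was not tested, apart from the smaller number of samples or the larger number of genes that some settings have by construction. Mean shares of ribosomal protein reads ranged from 12.1% to 13.2% in WT and 6.63% to 7.12% in ETV6-RUNX1 fetal liver, and from 9.82% to 11.8% and 7.92% to 9.58% in bone marrow, with a library left out. Members called on the share of ribosomal protein reads in fetal liver ranged from 8 (without WT fetal liver replicate 3) to 12.

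Libraries with the same replicate number did not deviate together (correlations of -0.44 to 0.39), so the numbers were not taken to pair them. Some libraries with different numbers did, with correlations of -0.495 to 0.656. The highest was WT fetal liver replicate 3 with WT bone marrow replicate 1, each with the largest ribosomal protein share of its group (14.0% and 13.2%). ETV6-RUNX1 bone marrow replicate 3, also with the largest share of its group (10.9%), correlated with them at 0.390 and 0.441. Each of these libraries also had the lowest Rps2 of its group. What these libraries had in common was not tested. With the replicate number as a block, 74 members were called in fetal liver, 4 in bone marrow, 3 for the interaction, 0 between sources in WT and 7 between sources in ETV6-RUNX1 cells.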
